A study of Rattus norvegicus with 12 samples.

Results

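The rat major histocompatibility complex, named RT1, and the genes that cut, carry and load peptides for it were followed in fracture hematoma and intact femur. The members were all gene symbols starting with RT1-, plus B2m, Tap1, Tap2, Tapbp, Psmb8, Psmb9, Psmb10, Psme1, Psme2, Erap1, Nlrc5, Ciita, Cd74, Ifi30, Cd80 and Cd86. Of 17379 gene features measured, 58 were members: 34 class I genes, 10 class II genes and 14 of the 16 genes named without the RT1- prefix. Erap1 and Nlrc5 were not analysed here. Of the class I genes, RT1-CE6 and RT1-T24-2 are annotated in RefSeq as long non-coding RNAs and are counted with class I by their symbols alone. In the RefSeq annotation of the GRCr8 build, 49 of the 58 lie on chromosome 20.

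RNA came from male SAS Fischer rats of 200 to 225 g, in 4 groups of 3 libraries. The normal, delayed and nonunion groups were hematoma from femoral defects of 0.5, 1.5 and 5.0 mm, which by their labels heal normally, heal late and do not heal. The preOP group was the piece of healthy femur taken out at surgery for a 5.0 mm defect, with no treatment. The labels give neither the time of hematoma collection nor whether the libraries came from separate animals, so p-values measure the spread between these samples, which may be technical. A bulk library mixes cell types, and fewer cells of a type and less RNA per cell cannot be told apart in it.

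Class I molecules are present on most nucleated cells and show peptides from inside the cell to CD8 T cells. Each pairs a heavy chain with B2m, the light chain. The immunoproteasome cuts the peptides, the Tap1 and Tap2 pump carries them into the endoplasmic reticulum, and Tapbp holds the empty heavy chain at the pump. Class II molecules are made mainly by B cells, dendritic cells and macrophages, and show peptides from the endosome to CD4 T cells. Cd74, the invariant chain, fills their groove until RT1-DM exchanges it for peptide, and RT1-DO restrains RT1-DM. In the rat, RT1-A genes encode the classical class I molecules, while the RT1-C/E/M region holds nonclassical ones. Inbred strains differ in this region.

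Library totals ran from 16808993 to 24325162 estimated reads, of which the members took 0.114% to 0.668%. Nonunion 2 stood apart because ribosomal RNA took 72.2% of its reads, where no other library passed 1.75%, and because of a summed level of 12362 CPM for adipocyte markers. Delayed 2 stood apart with 50674 CPM for skeletal muscle markers. Levels are given as TMM-scaled counts per 1e6 reads (CPM), and 0 reads in a library allow up to 0.115 to 0.462 CPM by a limit of 3 reads, for counting error only. The normal files also differed in form from all others. Between 16.8% and 18.1% of all their estimates, zeros included, were printed with a decimal point, against 100% in the other 9 files. Transcripts were 157 to 192 bases longer than their effective length at the median, against 194 to 255 bases. This difference in the files and the normal group cannot be told apart. No 2 libraries were identical.

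Class I heavy chains gave the main difference among hematomas. Classical RT1-A1, RT1-A2 and RT1-A3, together with RT1-CE2, RT1-CE3, RT1-CE10 and RT1-CE11 of the C/E region, were high in the 3 normal hematomas and low in every other library. Their group of 7 was formed after their values were seen. The light chain and the peptide supply genes did not pass the test in any comparison among hematomas.

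Upstream sequence shows how alike some class I genes are. The lines below give a 45-base stretch of the same element in 6 class I promoters, from the RefSeq promoter table of GRCr8, 5′ to 3′ on the gene's strand. Capitals mark GGGATTCCC, the kappa B motif of class I enhancer A, and TTTCACTTC, an interferon response motif. Each stretch was placed on GGGATTCCC, so all 6 hold that motif by choice. RT1-A1, RT1-A2, RT1-A3 and RT1-CE10 are 4 of the 7 genes, RT1-CE16 is the abundant C/E gene, and RT1-CE4 is a relative whose normal libraries lay within the range of the other groups.
RT1-A1: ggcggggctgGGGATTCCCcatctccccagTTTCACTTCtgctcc
RT1-A2: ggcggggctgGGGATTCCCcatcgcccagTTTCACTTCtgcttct
RT1-A3: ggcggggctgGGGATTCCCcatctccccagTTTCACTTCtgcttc
RT1-CE10: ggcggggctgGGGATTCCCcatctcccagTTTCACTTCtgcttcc
RT1-CE16: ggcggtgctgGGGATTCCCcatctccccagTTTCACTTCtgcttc
RT1-CE4: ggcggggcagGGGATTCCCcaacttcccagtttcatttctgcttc

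The RT1-A1 stretch is chr20:4907074-4907118, RT1-A2 is chr20:4872688-4872732 and RT1-A3 is chr20:4849272-4849316, all on the plus strand. RT1-CE10 is chr20:3385138-3385182, RT1-CE16 is chr20:3265539-3265583 and RT1-CE4 is chr20:3509315-3509359, all on the minus strand. They lie between 203 and 91 bases before the start given in the table. For RT1-A2 and RT1-CE16 they cross the outermost start annotated for the gene. Over 130 bases from the same first position, pairs of these 6 promoters were 86.2% to 94.6% identical. Searched on both strands over the 250 bases before the start, GGGATTCCC was found in 8 of 30 class I promoters (26.7%), none of the 9 class II promoters and 0.272% of all 33469 promoters in the table. TTTCACTTC was found in 11 of 30 class I promoters (36.7%), none of the class II promoters and 0.382% of all. The kappa B motif was in the promoters of RT1-A1, A2, A3, CE10, CE11, CE13, CE16 and CE4, so it was not limited to the 7 genes. Nor did all 7 share it, since the promoters of RT1-CE2 and RT1-CE3 lacked it. That of RT1-CE2 also lacked TTTCACTTC.

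The same likeness extends to the reads. Salmon divides a read that fits several transcripts among them, which leaves estimates that are not whole numbers. Of the class I transcripts with reads, 80.6% to 96.7% per library had an estimate more than 0.01 from a whole number, against 0% to 30% of class II transcripts and 26.7% to 50% of those of the members without the RT1- prefix. The level of a single class I gene is uncertain, since its reads can have been split with near-identical copies. The reference genome is from the Brown Norway strain and the rats were Fischer, and the part of strain differences in how reads were divided was not tested.

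RT1-A2 was at 205, 426 and 114 CPM in the 3 normal hematomas, 11.7, 3.76 and 11 CPM in the delayed, 5.89, 6.63 and 7.16 CPM in the nonunion, and 7.7, 6.94 and 11.2 CPM in the preOP femurs. RT1-A1 was at 96.9, 210.2 and 125 CPM in normal, 25.8, 6.24 and 18.5 CPM in delayed, 12.1, 25 and 17.7 CPM in nonunion, and 17.6, 20.1 and 26.5 CPM in preOP. RT1-A3 was at 107, 276 and 119 CPM in normal, 53.1, 15.9 and 41.4 CPM in delayed, 28.8, 29.3 and 31.8 CPM in nonunion, and 37.2, 36.8 and 46.0 CPM in preOP. For each of these 3 classical heavy chains, every normal library was above all 9 others. The delayed, nonunion and preOP libraries overlapped for RT1-A1 and RT1-A2, while for RT1-A3 every nonunion library was below every preOP library.

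The 4 C/E genes of the group were lower in level but divided the libraries in the same way. RT1-CE10 was at 19.2, 25 and 23.3 CPM in normal and between 0.206 and 1.65 CPM in all other libraries. RT1-CE11 was at 12.3, 11.7 and 15.6 CPM in normal and between 0 and 1.54 CPM elsewhere. RT1-CE2 was at 9.07, 14.1 and 5.9 CPM in normal, against 0.155 to 1.09 CPM elsewhere. RT1-CE3 was at 3.46, 7.28 and 2.07 CPM in normal, against 0 to 0.614 CPM elsewhere, with no reads in nonunion 2, preOP 2 and preOP 3. No normal library overlapped any other library for these genes. Their group was formed after such values were seen, and the share of all features with such a gap is not given here.

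**Figure D1:**
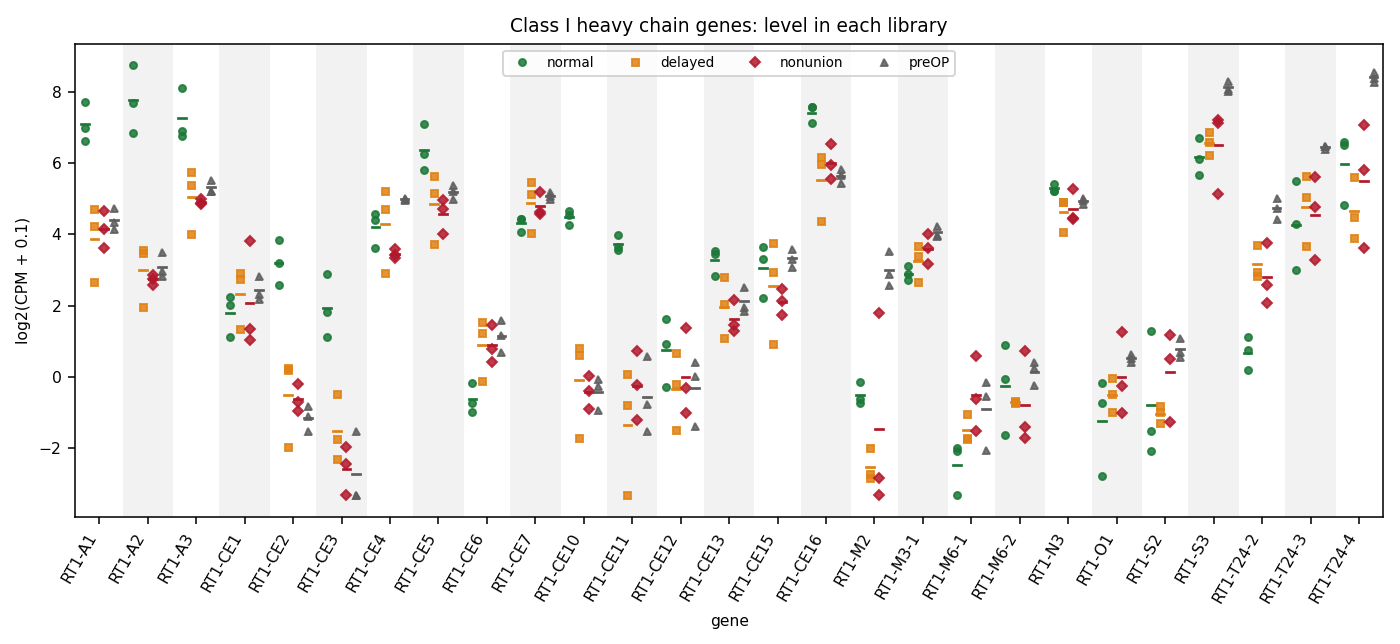
Level of each class I heavy chain gene that passed the filter on low counts, as log2(CPM + 0.1), in the 12 libraries. Points are libraries and short bars are means of 3. The normal libraries stand above all others for RT1-A1, A2, A3, CE2, CE3, CE10 and CE11, and also for RT1-CE5, CE13 and CE16. The preOP libraries stand above the others for RT1-M2, S3, T24-2, T24-3 and T24-4. The share of all features with such gaps is not given here.

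In delayed against normal hematoma, edgeR's quasi-likelihood test with Benjamini-Hochberg adjustment over all 12474 features called 7.13% of features, at an adjusted p below 0.05. Of the 48 members that passed the filter on low counts, 8 were called, 1 higher and 7 lower, and all were class I genes. The median log2 fold change was -0.38 over these 48 and -1.12 over their 26 class I genes, beside 0.02 over all features. RT1-A2 fell, with a log2 fold change of -4.79 (SE 0.60, adjusted p = 0.0065), as did RT1-CE10 at -4.34 (SE 0.70, adjusted p = 0.012) and RT1-A1 at -3.08 (SE 0.55, adjusted p = 0.018). RT1-CE2 had a log2 fold change of -3.63 (adjusted p = 0.024), RT1-CE11 of -4.74 (adjusted p = 0.034), RT1-CE3 of -3.73 (adjusted p = 0.035) and RT1-A3 of -2.17 (adjusted p = 0.036). The 1 gene that rose was RT1-T24-2, the non-coding RNA of the T region, by 2.52 (SE 0.54, adjusted p = 0.030), from 1.56 ± 0.51 CPM in normal to 9.16 ± 3.24 CPM in delayed (SD, n = 3).

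Nonunion against normal, which shares the normal libraries with that comparison, had a background of 2.37% of features called. Of the 48 members tested, 6 were called, all lower and all class I, and the median log2 fold change was -0.31 beside -0.03 over all features. RT1-A2 was at -5.28 (SE 0.62, adjusted p = 0.007), RT1-CE10 at -5.18 (SE 0.74, adjusted p = 0.014) and RT1-A1 at -3.04 (SE 0.55, adjusted p = 0.030). RT1-CE3 was at -5.38 (adjusted p = 0.029), RT1-CE2 at -4.19 (adjusted p = 0.029) and RT1-A3 at -2.53 (adjusted p = 0.039). RT1-CE11 had a log2 fold change of -4.09 and RT1-T24-2 of 2.23, and neither passed the test (adjusted p = 0.075 and 0.064). DESeq2 called both.

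Some of these calls were lost when a library was left out, which also leaves fewer samples in the fit. In delayed against normal, the calls of RT1-A2 and RT1-CE10 held with each of the 9 hematoma libraries left out in turn, with an adjusted p of at most 0.029 and 0.049. RT1-A1 was no longer called without normal 2, normal 3 or delayed 3 (adjusted p up to 0.060). RT1-CE2 was lost without any 1 normal library, delayed 1 or delayed 3 (up to 0.073). RT1-CE11 was lost without the same libraries or nonunion 1 (up to 0.10). RT1-CE3 was lost without any 1 normal or delayed library or nonunion 3 (up to 0.11), RT1-T24-2 without any 1 normal or delayed library (up to 0.11), and RT1-A3 without any library except delayed 2 and nonunion 2 (up to 0.10).

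In nonunion against normal, RT1-A2 was lost only without nonunion 3 (adjusted p = 0.050 after rounding), and RT1-CE10 without normal 1, normal 3, nonunion 1 or nonunion 3 (up to 0.062). RT1-CE2 and RT1-CE3 were lost without any 1 normal or nonunion library (both up to 0.093), and RT1-A1 and RT1-A3 without any of these or delayed 3 (up to 0.097 and 0.11). The direction held for all 7 genes with each library left out. With the deposited effective lengths as offsets, the same 8 and 6 members were called.

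Nonunion against delayed called 0% of features, and no member, with edgeR. At an unadjusted p below 0.05 there were 881 features and none of the 48 members, and DESeq2 called 184 features and no member. RT1-A2 had a log2 fold change of -0.49 (SE 0.52) in this comparison, and RT1-A1 of 0.04 (SE 0.51).

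**Figure D2:**
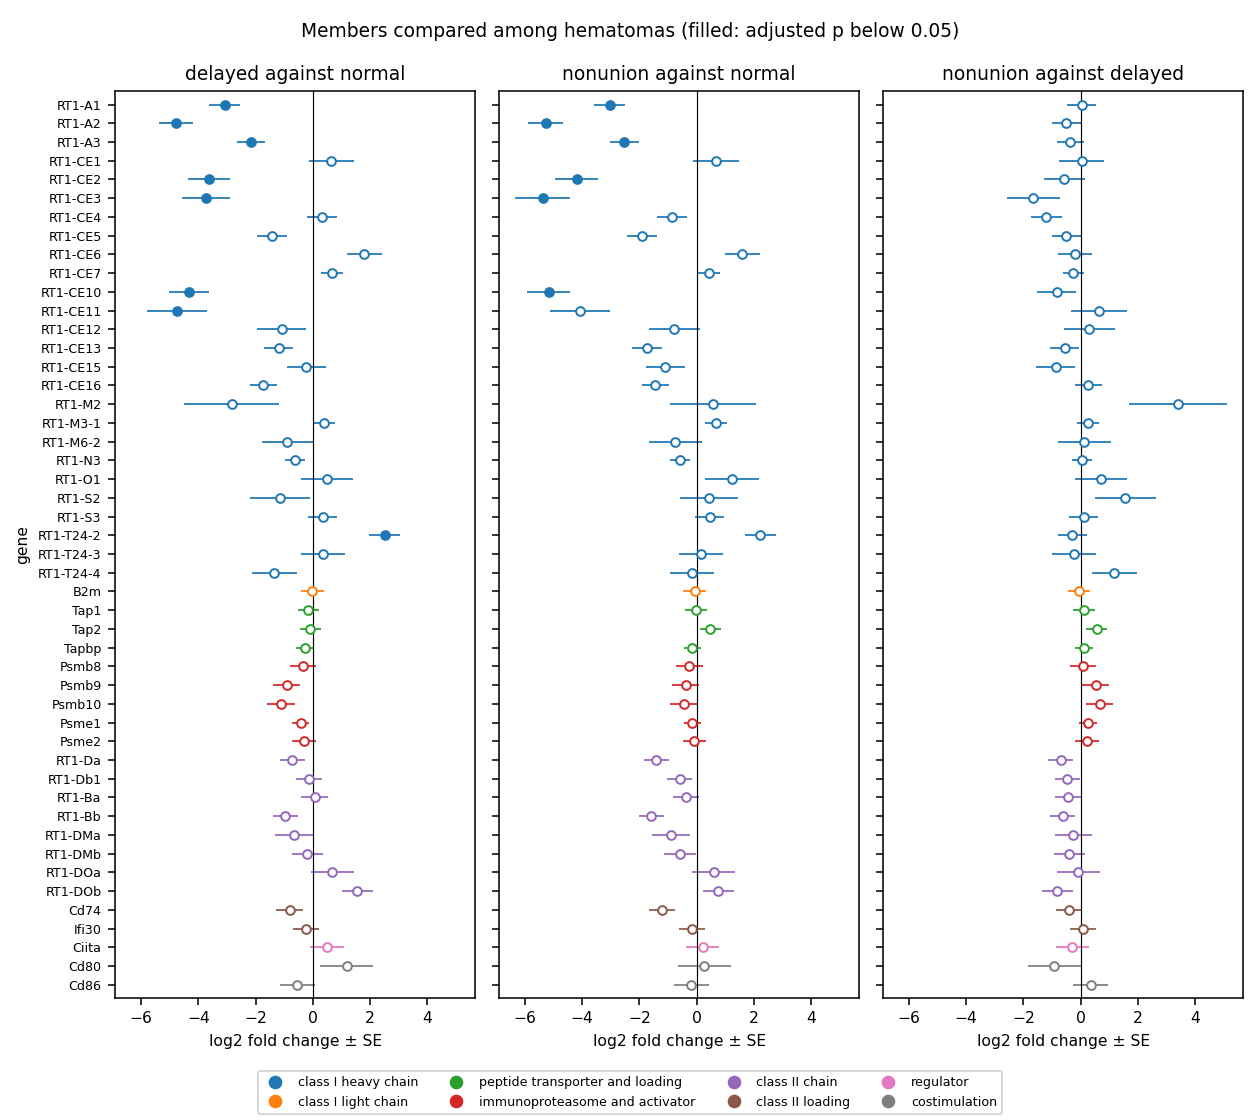
Log2 fold change and SE of each member tested in the 3 comparisons among hematomas, coloured by role. Filled points passed at an adjusted p below 0.05: 8 in delayed against normal, 6 in nonunion against normal and none in nonunion against delayed.

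Markers of bone-forming cells moved with the same libraries. The summed level of 10 osteoblast and bone matrix genes ran from 29370 to 44615 CPM in the normal libraries. It was 8046 to 27508 CPM for delayed, 8592 to 9280 CPM for nonunion and 3661 to 4150 CPM for preOP, and none of the 10 was at 0 in every library of a group. Of these, 7 were lower in delayed than in normal and 5 in nonunion, beside 7.13% and 2.37% of all features called. The 10 neutrophil markers summed to 10209, 1537 and 1853 CPM in normal, 93.4 to 1219 CPM in delayed, 68.4 to 687 CPM in nonunion and 9989 to 12348 CPM in preOP, with none at 0 in every library of a group. Of 9 tested among hematomas, 1 was lower in delayed and 2 in nonunion than in normal, beside the same shares of all features. The part of these cells in the class I result was not tested.

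A sum over all class I genes does not depend on how reads are divided among the listed paralogs. All 34 genes summed to 932, 1575 and 959 CPM in normal, 569, 265 and 451 CPM in delayed, 264, 623 and 489 CPM in nonunion, and 992, 995 and 1131 CPM in preOP. Normal hematoma was above all delayed and nonunion libraries, while normal and preOP overlapped. The 7 genes were chosen from these same libraries for being high in normal. Leaving them out therefore lowers the normal sums most. Without the 7 genes, the sums were 478, 605 and 554 CPM in normal, 474, 238 and 377 CPM in delayed, 215, 559 and 431 CPM in nonunion and 928, 929 and 1046 CPM in preOP, with nonunion overlapping normal and the highest delayed library just under the lowest normal one.

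Normal hematoma and preOP femur reached similar class I totals with the estimated reads on different genes. RT1-A1, A2 and A3 made up 43.9%, 57.9% and 37.4% of class I reads in the normal libraries. Their share lay between 9.8% and 15.9% for delayed, 9.77% and 17.7% for nonunion, and 6.29% and 7.39% for preOP. The share of the nonclassical M, N, O, S and T genes took the reverse course, with 13.1% to 25.1% for normal, 42.5% to 65.5% for delayed, 35.3% to 63.8% for nonunion and 76.1% to 76.6% for preOP. Their summed level did not do so among hematomas. It was 234, 206 and 225 CPM in normal, 242, 173 and 194 CPM in delayed, and 93.2, 361 and 312 CPM in nonunion. In preOP it was 760, 758 and 861 CPM, above all hematomas. These shares were described after the levels were seen and were not tested. They depend on how reads were divided among near-identical copies, and the normal files differ in form from all others.

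**Figure D3:**
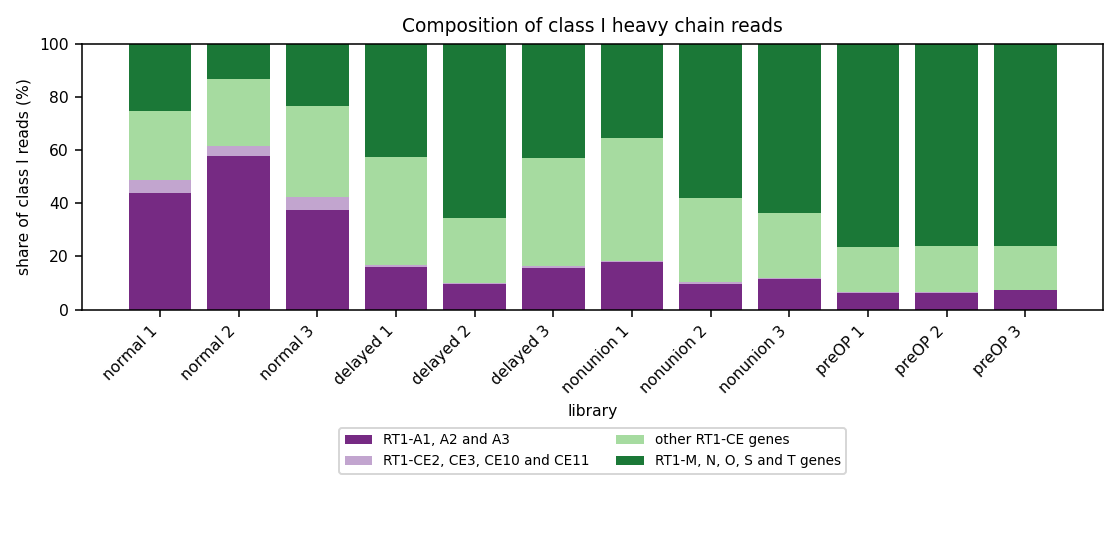
Share of class I heavy chain reads in each library, in percent, for 4 sets of genes that add up to all 34. RT1-A1, A2 and A3 hold 37.4% to 57.9% in normal hematoma and 6.29% to 7.39% in preOP femur, where the M, N, O, S and T genes hold at least 76.1%.

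The other C/E genes were mixed. RT1-CE16 was the most abundant of them per length in each group. It was at 138, 190 and 188 CPM in normal, 72.2, 20.7 and 63.1 CPM in delayed, 60.8, 91.9 and 46.5 CPM in nonunion and 43.4, 50.4 and 56.6 CPM in preOP. All normal libraries were above the rest, but RT1-CE16 missed the threshold against delayed (log2 fold change -1.72, SE 0.47, adjusted p = 0.057) and against nonunion (-1.45, SE 0.46, adjusted p = 0.13). RT1-CE5 was at 55.5, 135 and 75.7 CPM in normal and 13.1 to 49.2 CPM elsewhere, and also missed it (adjusted p = 0.13 and 0.088). RT1-CE6 was at 0.406 to 0.796 CPM in normal and 0.825 to 2.90 CPM elsewhere, with a log2 fold change of 1.8 in delayed (adjusted p = 0.11). RT1-CE1, CE4, CE7, CE12, CE13 and CE15 did not pass the test among hematomas either. RT1-CE7 was at 16.5 to 21.6 CPM in normal and 16.2 to 44.2 CPM in delayed. DESeq2 called RT1-CE16 and CE6 in delayed against normal, and RT1-CE5 and CE13 in nonunion against normal. Without delayed 2 and nonunion 2, edgeR called RT1-CE16 in both comparisons, RT1-CE6 and CE7 in delayed, and RT1-CE13 in nonunion.

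Several genes of the nonclassical regions were highest in the preOP femur. RT1-T24-4 was at 307, 335 and 374 CPM in preOP, against 95.4, 90.4 and 28.4 CPM in normal, 22.2, 48.6 and 14.7 CPM in delayed, and 12.3, 133 and 56.0 CPM in nonunion. RT1-S3 was at 271, 258 and 312 CPM in preOP, against 69.5, 50.01 and 103 CPM in normal, 117, 74.5 and 96.1 CPM in delayed, and 35, 140 and 148 CPM in nonunion. RT1-T24-2 was at 26.4, 21.3 and 32.5 CPM in preOP, and spanned 1.04 to 2.06 CPM for normal, 7.06 to 12.9 CPM for delayed and 4.11 to 13.4 CPM for nonunion. For all 3 genes the preOP libraries were above every hematoma, and for RT1-T24-2 the normal hematomas were also below all delayed and nonunion ones.

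Erythroid and NK cell markers were highest in the same preOP libraries, which did not hold for every blood cell list. The 8 erythroid markers summed to 130513 to 232392 CPM in preOP and 1105 to 23332 CPM in hematoma, and globin took 15.7% to 24.0% of preOP reads and at most 2.96% elsewhere. All 8 fell in each hematoma group against preOP. The 7 NK cell markers summed to 92.0 to 147 CPM in preOP and 8.62 to 59.4 CPM in hematoma, and 5, 3 and 4 of them fell in normal, delayed and nonunion. In the same comparisons 42.6%, 28.2% and 28.4% of all features were called. The 11 T cell markers were not highest there, with sums of 86.7 to 127 CPM in preOP and 97.6 to 139 CPM in normal. They summed to 183 to 358 CPM in delayed and 213 to 275 CPM in nonunion. No marker of these lists was at 0 in every library of a group. The part of blood cells in the genes highest in preOP, Tap2 included, was not tested.

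The comparisons with preOP were made in 1 fit of all 12 libraries and share the preOP libraries. They had a wide background: 42.6% of 12846 features were called in normal, 28.2% in delayed and 28.4% in nonunion. The members called were 21 of 50 in normal (42%), 7 of 50 in delayed (14%) and 6 of 50 in nonunion (12%). The share in normal was near the background, and the shares in delayed and nonunion were below it. RT1-T24-4 had a log2 fold change of -2.25 in normal (SE 0.75, adjusted p = 0.032), -3.57 in delayed (SE 0.79, adjusted p = 0.0072) and -2.34 in nonunion (SE 0.75, adjusted p = 0.039). RT1-T24-2 was at -4.10 in normal (adjusted p = 0.00023), -1.55 in delayed (adjusted p = 0.027) and -1.8 in nonunion (adjusted p = 0.014). RT1-S3 was at -1.92, -1.55 and -1.38 (adjusted p = 0.0080, 0.029 and 0.046).

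RT1-M3-1, whose mouse counterpart presents formylated bacterial peptides, was at 18.8, 15.3 and 15.5 CPM in preOP and 6.42 to 8.45 CPM in normal, a log2 fold change of -1.17 (SE 0.33, adjusted p = 0.015). RT1-M2 was at 11.4, 7.22 and 5.92 CPM in preOP, 0.501 to 0.811 CPM in normal and 0.0403 to 0.154 CPM in delayed. In nonunion it was at 0 and 0.0414 CPM in nonunion 1 and 3 and at 3.39 CPM in nonunion 2, the library with 72.2% ribosomal RNA. RT1-M2 was lower in normal (log2 fold change -3.70, adjusted p = 0.045) and in delayed (-6.51, adjusted p = 0.012) than in preOP. RT1-T24-3 was at 84.1 to 88.9 CPM in preOP and 7.9 to 49.1 CPM in hematoma, and did not pass the main edgeR test in any comparison. It came closest in normal against preOP (log2 fold change -1.85, SE 0.69, adjusted p = 0.051). There DESeq2, a replicate block and effective lengths as offsets each called it.

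For the 7 genes, normal hematoma stood above the femur. They were grouped after being seen high in normal and low in every other library, preOP included. How the groups compare with preOP for these genes follows from that choice. The delayed libraries overlapped the preOP ones for all 7, and the nonunion libraries did so for all except RT1-A3. In normal against preOP, RT1-A2 rose by 4.85 (SE 0.57, adjusted p = 0.00017), RT1-CE10 by 5.05 (SE 0.68, adjusted p = 0.00034), RT1-A1 by 2.75 (SE 0.50, adjusted p = 0.0017) and RT1-A3 by 2.07 (SE 0.45, adjusted p = 0.0042). RT1-CE2, CE3, CE11, CE16 and CE5 also rose, and RT1-CE6 fell by 1.95 (adjusted p = 0.016). None of the 7 genes was called in delayed or nonunion against preOP. RT1-CE4 was lower in nonunion than in preOP (-1.54, adjusted p = 0.031) and was not called among hematomas.

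Left-out libraries changed some calls against preOP. RT1-A1, A2, A3, CE2, CE3, CE10, CE11, CE16, S3 and T24-2 stayed called in normal with each of the 12 libraries left out. RT1-T24-4 in normal was lost without any 1 normal or preOP library (adjusted p up to 0.10), and in nonunion without nonunion 1, nonunion 3 or any preOP library (up to 0.11). RT1-M2 in normal was lost without delayed 3 or any normal or preOP library (up to 0.12), and in delayed without delayed 3. RT1-M3-1 was lost without preOP 1 or preOP 2 (up to 0.091). RT1-S3 in delayed was lost without any delayed or preOP library or nonunion 3 (up to 0.12), and in nonunion without any library except normal 2 (up to 0.12). RT1-T24-2 in delayed was lost without delayed 1, delayed 3 or any preOP library (up to 0.10), and in nonunion without nonunion 3 or preOP 3 (up to 0.056). RT1-CE5 was lost without normal 2, normal 3, delayed 3, nonunion 3 or any preOP library (up to 0.19), RT1-CE6 without normal 1, normal 3, preOP 2 or preOP 3 (up to 0.066), and RT1-CE4 in nonunion without delayed 3 or any nonunion or preOP library (up to 0.12).

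**Figure D4:**
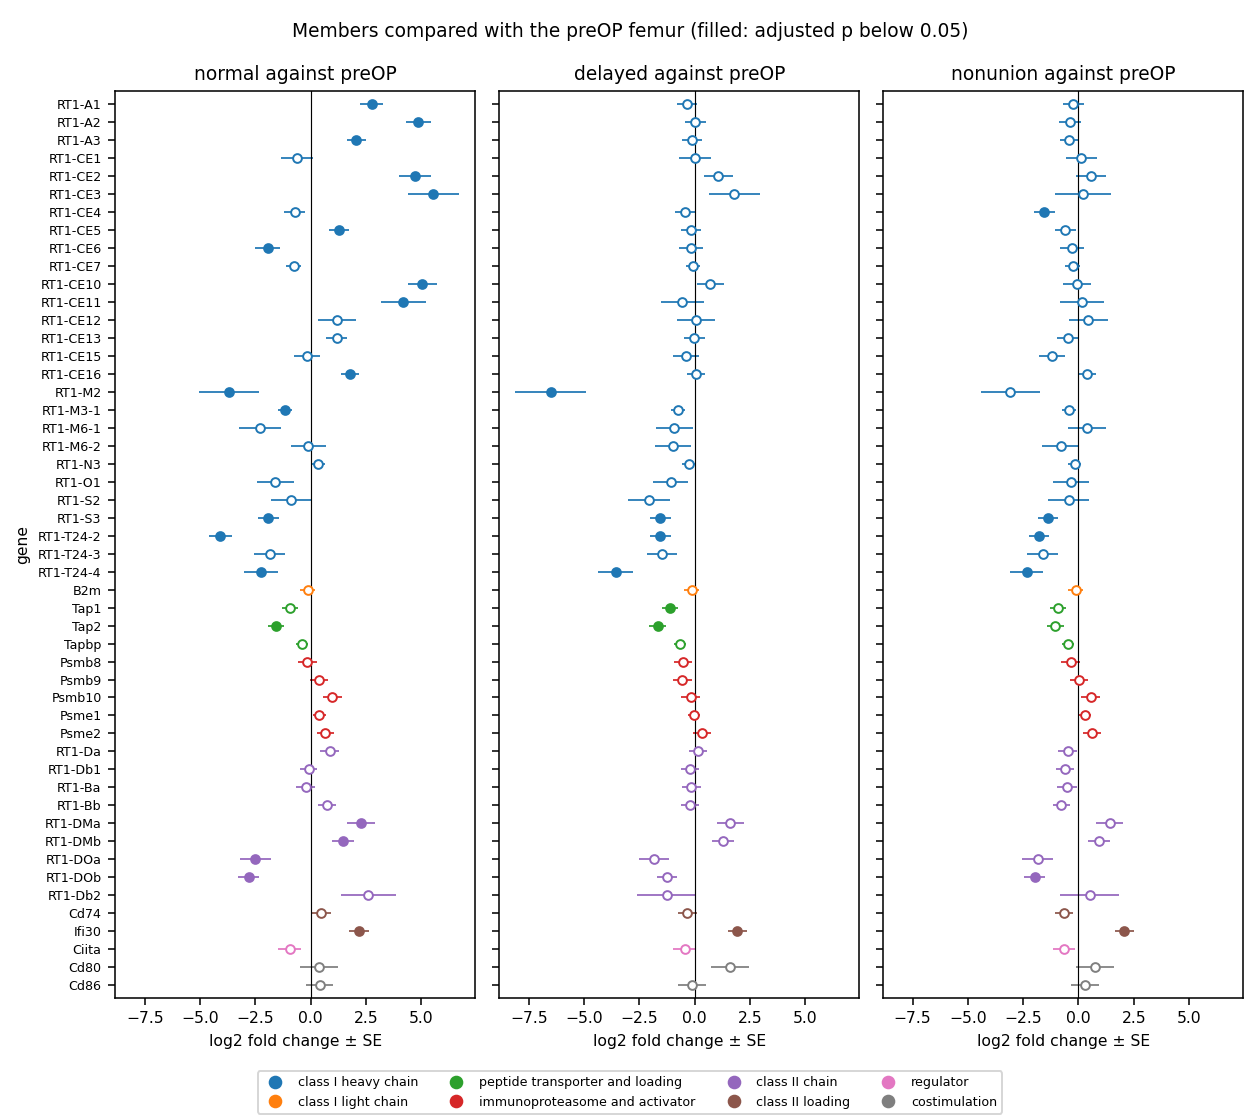
Log2 fold change and SE of each member tested in the 3 hematoma groups against the preOP femur, coloured by role. Filled points passed at an adjusted p below 0.05: 21 in normal, 7 in delayed and 6 in nonunion.

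B2m, the light chain shared by all class I molecules, overlapped among all groups. It was at 1797, 1755 and 1509 CPM in normal, 2524, 1187 and 1342 CPM in delayed, 1320, 2056 and 1695 CPM in nonunion and 2116, 1859 and 1584 CPM in preOP. Its log2 fold change was -0.01 in delayed (SE 0.40) and -0.07 in nonunion (SE 0.40) against normal. Per length, the summed heavy chains over B2m gave a log2 ratio of -0.58, 0.21 and -0.27 in normal, -1.79, -1.98 and -1.20 in delayed, -1.86, -1.42 and -1.59 in nonunion and -0.94, -0.73 and -0.35 in preOP. The delayed and nonunion ratios were below all normal and preOP ratios.

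The transporter genes were highest in the preOP femur. Tap2 was at 103, 119 and 194 CPM in preOP, 39.9, 64.9 and 35.5 CPM in normal, 53.6, 22.8 and 54.5 CPM in delayed and 66.4, 68.0 and 67.3 CPM in nonunion. No hematoma reached the lowest preOP library. Tap2 was lower in normal (log2 fold change -1.57, SE 0.37, adjusted p = 0.0067) and in delayed (-1.67, SE 0.37, adjusted p = 0.0075), and missed the threshold in nonunion (-1.04, adjusted p = 0.054).

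Tap1 was at 70.7, 86.2 and 132 CPM in preOP and 22.2 to 66.1 CPM in hematoma, with a log2 fold change of -1.10 in delayed (adjusted p = 0.045). That call was lost without any 1 of the 12 libraries (adjusted p 0.051 to 0.21), while Tap2 kept its calls. Tapbp was at 56.2 to 76.1 CPM in preOP and 25.3 to 57.6 CPM in hematoma and was not called. Among hematomas, none of these 3 genes was called, and log2 fold changes against normal were between -0.27 and 0.47.

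The immunoproteasome subunits Psmb8, Psmb9 and Psmb10 and the proteasome activator genes Psme1 and Psme2 were not called in any of the 6 comparisons. Psmb10 was at 40, 109 and 44.7 CPM in normal, 34.5, 16.9 and 37.3 CPM in delayed, 51.5, 30.2 and 64.2 CPM in nonunion and 31.2, 34.7 and 33.5 CPM in preOP. It had the lowest unadjusted p of the 5 against normal, in delayed (log2 fold change -1.11, SE 0.48, adjusted p = 0.18). Normal 2 was the highest of the 12 libraries for all 5 genes.

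Each immunoproteasome subunit replaces a constitutive one, so their ratio per length was also followed. The log2 ratio of Psmb9 over Psmb6 was -1.28, -1.29 and -1.34 in normal, -0.31, -2.06 and -0.51 in delayed, -0.94, -0.19 and -0.22 in nonunion and 0.31, -0.02 and -0.02 in preOP. Psmb8 over Psmb5 was -1.60, -1.62 and -1.85 in normal and -0.86 to -0.17 in preOP. Both ratios were lower in normal hematoma than in preOP femur without overlap. Psmb10 over Psmb7 showed no such gap, at -1.81, -1.31 and -1.69 in normal and -1.91, -1.53 and -1.46 in preOP. Delayed 2, the library rich in muscle markers, was the lowest of the 12 for all 3 ratios. These ratios were chosen after seeing the levels and were not tested.

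Of 16 partners of the class I pathway listed beside the members, 7 rose in normal, 5 in delayed and 1 in nonunion against preOP, and none fell. With 42.6%, 28.2% and 28.4% of all features called, the counts in normal and delayed were near the background and that in nonunion was below it. Sec61a1, a subunit of the translocon of the endoplasmic reticulum, rose in all 3, by 2.41, 1.59 and 1.19 (adjusted p = 0.0006, 0.0069 and 0.026). Calr, a chaperone of the peptide loading complex, was at 1734 ± 351 CPM in normal and 556 ± 68.6 CPM in preOP (log2 fold change 1.64, adjusted p = 0.0074). Among hematomas, Sec61b was lower in delayed than in normal (-2.36, adjusted p = 0.028) and Npepps, a cytosolic aminopeptidase, was higher (1.34, adjusted p = 0.047). The other 14 were not called there, and none was called in nonunion against normal. The list's median log2 fold change was -0.14 in delayed and -0.48 in nonunion against normal, beside 0.02 and -0.03 over all features.

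No class II chain was called among the hematomas by edgeR. Of 10 class II genes, 8 passed the filter in the hematoma fit and none was called in any of its 3 comparisons, beside the 7.13%, 2.37% and 0% of all features. At an unadjusted p below 0.05 there was 1 in delayed against normal (RT1-DOb), 2 in nonunion against normal (RT1-Bb and RT1-Da) and none in nonunion against delayed. DESeq2 called RT1-DOb in the first and RT1-Bb in the second. The libraries did not overlap for these genes: normal was above nonunion for RT1-Bb and RT1-Da, and below delayed and nonunion for RT1-DOb.

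The promoters of class II genes carry an X box and a Y box, which bind the RFX and NF-Y complexes and, through them, Ciita. In 4 class II promoters from the same table, shown because each holds both boxes and their genes include chains of RT1-D, RT1-B and the inhibitor RT1-DO, capitals mark GCAAC, the core of the X box, and ATTGG, the core of the Y box.
RT1-Da: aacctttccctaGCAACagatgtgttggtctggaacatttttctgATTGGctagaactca
RT1-Db1: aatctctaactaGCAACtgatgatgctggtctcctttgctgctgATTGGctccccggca
RT1-Ba: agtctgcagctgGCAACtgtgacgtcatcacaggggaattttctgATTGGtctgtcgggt
RT1-DOb: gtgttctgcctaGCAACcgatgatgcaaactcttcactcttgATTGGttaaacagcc

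RT1-Da is chr20:4515321-4515380 and RT1-Ba is chr20:4576969-4577028 on the plus strand of GRCr8. RT1-Db1 is chr20:4560228-4560286 and RT1-DOb is chr20:4627592-4627648 on the minus strand. GCAAC followed by ATTGG 25 to 40 bases further on was found in 7 of 9 class II promoters (77.8%), in none of 30 class I promoters and in 0.547% of all promoters in the table. The spacing was chosen after these sequences were seen. RT1-Bb and RT1-DMa were the 2 class II promoters without this pair.

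RT1-Da and RT1-Db1 encode the chains of RT1-D, the counterpart of human HLA-DR, and RT1-Ba and RT1-Bb those of RT1-B, the counterpart of HLA-DQ. RT1-Da was at 172, 277 and 385 CPM in normal, 269, 115 and 130.2 CPM in delayed, 80.2, 135 and 115 CPM in nonunion and 212, 155 and 96.7 CPM in preOP. RT1-Ba was at 70.3, 125 and 161 CPM in normal, 195, 76.4 and 105 CPM in delayed, 64.1, 144 and 83.6 CPM in nonunion and 170.4, 145 and 102 CPM in preOP. RT1-Db1 spanned 50.0 to 170 CPM over the 12 libraries. The groups overlapped for RT1-Ba and RT1-Db1, while each normal library was above each nonunion library for RT1-Da (log2 fold change of nonunion against normal -1.41, SE 0.44, adjusted p = 0.12).

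RT1-Bb was at 126, 180.4 and 219 CPM in normal, 145, 51.7 and 75.8 CPM in delayed, 39.0, 78.9 and 66.9 CPM in nonunion and 125, 105 and 85.6 CPM in preOP. Its log2 fold change in nonunion against normal was -1.58 (SE 0.44, adjusted p = 0.095). Per length, the log2 ratio of RT1-Bb over its partner RT1-Ba was 0.33, 0.03 and -0.06 in normal and between -1.38 and -0.78 in the other 9 libraries, without overlap. In the normal files 30% of class II transcripts with reads had an estimate that was not whole, against at most 10% in the other files, and the part of this in the ratio was not tested.

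All 10 class II genes together summed to 644, 1068 and 1142 CPM in normal, 1122, 397 and 585 CPM in delayed, 484, 544 and 529 CPM in nonunion and 751, 636 and 477 CPM in preOP. Nonunion was below all normal libraries, and the other groups overlapped. Cd74, the invariant chain, was at 384, 755 and 698 CPM in normal, 524, 204 and 320 CPM in delayed, 175, 391 and 270 CPM in nonunion and 552, 440 and 328 CPM in preOP. It was not called in any comparison (nonunion against normal: log2 fold change -1.20, SE 0.46, adjusted p = 0.18).

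The peptide exchange genes were higher in normal hematoma than in bone. RT1-DMa was at 75.8, 153 and 79.9 CPM in normal, 109, 20.01 and 63.6 CPM in delayed, 88.9, 19.9 and 60.2 CPM in nonunion and 19.2, 25.1 and 19.0 CPM in preOP. RT1-DMb was at 119, 184 and 149 CPM in normal, 222, 63.5 and 112 CPM in delayed, 158, 42.7 and 114 CPM in nonunion and 57.0, 60.7 and 47.3 CPM in preOP. Every normal library was above every preOP library for both genes. Delayed 2 and nonunion 2, the libraries that stood apart, were the lowest hematomas for both, within the preOP range for RT1-DMa and just above and below it for RT1-DMb. RT1-DMa rose in normal against preOP by 2.29 (SE 0.63, adjusted p = 0.014) and RT1-DMb by 1.45 (SE 0.50, adjusted p = 0.036). In delayed and nonunion RT1-DMa had log2 fold changes of 1.61 and 1.42 and was not called (adjusted p = 0.074 and 0.11), nor was RT1-DMb at 1.27 and 0.93 (adjusted p = 0.079 and 0.18). Without delayed 2 and nonunion 2, both DM genes were called in delayed and in nonunion.

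RT1-DOa and RT1-DOb, which form the inhibitor of RT1-DM, went the other way. RT1-DOb was at 8.93, 9.82 and 8.88 CPM in preOP, 1.20, 1.53 and 1.22 CPM in normal, 6.72, 1.8 and 3.15 CPM in delayed and 2.06, 2.77 and 2.19 CPM in nonunion. RT1-DOa was at 5.38, 6.37 and 10.4 CPM in preOP, and spanned 1.00 to 1.59 CPM for normal, 0.670 to 3.92 CPM for delayed and 1.03 to 4.16 CPM for nonunion. All hematomas were below all preOP libraries for both. RT1-DOb fell by 2.80 in normal (SE 0.47, adjusted p = 0.0011) and by 1.98 in nonunion (SE 0.46, adjusted p = 0.0088), and missed the threshold in delayed (-1.24, adjusted p = 0.058). RT1-DOa fell by 2.50 in normal (SE 0.71, adjusted p = 0.016), and was at -1.83 in delayed and -1.85 in nonunion (adjusted p = 0.069 and 0.071).

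Per length, the log2 ratio of the summed DM genes over the summed DO genes was 5.71, 6.04 and 5.76 in normal, 4.16, 4.25 and 4.39 in delayed, 5.44, 2.37 and 4.97 in nonunion and 1.60, 1.58 and 0.96 in preOP. All hematomas were above all preOP femurs and all normal above all delayed, and nonunion 2 was the lowest hematoma. The ratio was chosen after the levels were seen and was not tested. RT1-DO is known mainly from B cells. The summed level of 7 B cell markers was 180 to 280 CPM in preOP and 1.78 to 37.9 CPM in hematoma, highest in nonunion 2. Of the 7 markers, 6, 7 and 5 fell in normal, delayed and nonunion against preOP, beside 42.6%, 28.2% and 28.4% of all features called. None of the 7 was at 0 in every library of a group, and the part of B cells in the DO result was not tested.

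Some DM and DO calls were also lost with a library left out. RT1-DMa and RT1-DOb in normal stayed called with each library left out, with an adjusted p of at most 0.05 after rounding and 0.0078. RT1-DMb was lost without normal 2, normal 3 or any preOP library (up to 0.11), and RT1-DOa without normal 1, normal 3 or preOP 3 (up to 0.054).

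**Figure D5:**
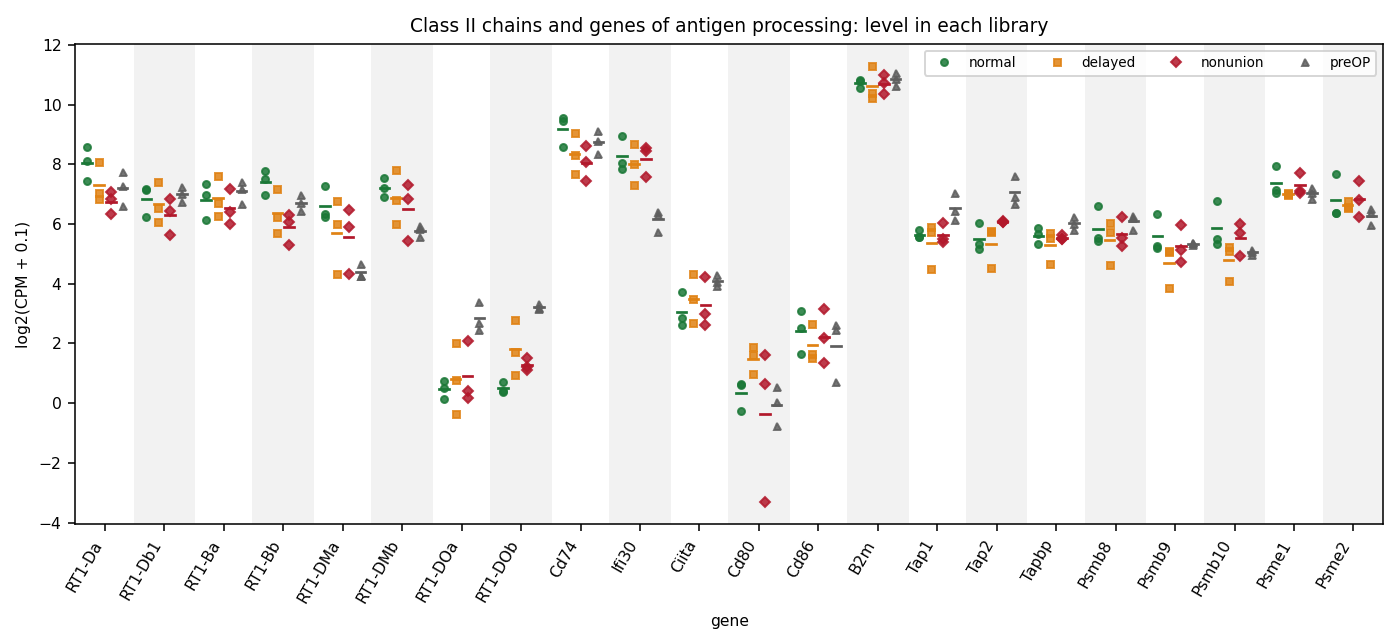
Level of class II chains and of the genes of antigen processing, as log2(CPM + 0.1), in the 12 libraries. Points are libraries and short bars are means of 3. Ifi30 lies at 53.4 to 85 CPM in preOP and at 159 to 494 CPM in hematoma, and RT1-DOb lies at 8.88 to 9.82 CPM in preOP, above all hematomas.

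Ifi30, the lysosomal thiol reductase that unfolds proteins for class II loading, was the member raised in all 3 hematoma groups. It was at 231, 494 and 261 CPM in normal, 414, 159 and 257 CPM in delayed, 352, 192 and 370.1 CPM in nonunion and 85, 78.7 and 53.4 CPM in preOP. Every hematoma was above every preOP library and the hematoma groups overlapped. Ifi30 rose by 2.18 in normal (SE 0.44, adjusted p = 0.0028), by 1.93 in delayed (SE 0.43, adjusted p = 0.0075) and by 2.07 in nonunion (SE 0.44, adjusted p = 0.0055), and kept these calls with each library left out.

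Of 14 class II pathway partners, 9 rose and 1 fell in each hematoma group against preOP, where 42.6%, 28.2% and 28.4% of all features were called, with list medians of 1.25, 1.42 and 1.48 beside -0.09, -0.03 and 0.00 over all features. Ctsl, a lysosomal protease, was at 1731 ± 787 CPM in normal, 1837 ± 584 CPM in delayed, 1752 ± 834 CPM in nonunion and 96.8 ± 33.1 CPM in preOP (SD, n = 3). Lgmn, the asparaginyl endopeptidase, rose by 3.24, 3.34 and 3.38. Marchf8, a ubiquitin ligase for class II and other surface proteins, was the 1 that fell, with log2 fold changes of -1.63, -1.22 and -1.49. None of the 14 was called among hematomas.

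Of 15 macrophage and monocyte markers, 6, 6 and 5 rose in normal, delayed and nonunion against preOP and none fell, beside 42.6%, 28.2% and 28.4% of all features called. The list's medians were 0.66, 0.85 and 0.93. Cd68, a lysosomal protein of macrophages, was at 296 ± 95.3 CPM in normal, 248 ± 125 CPM in delayed, 274 ± 131 CPM in nonunion and 38.7 ± 8.80 CPM in preOP. The list summed to between 7368 and 8086 CPM for normal, 3825 and 11369 CPM for delayed, 3066 and 8630 CPM for nonunion, and 2899 and 4992 CPM for preOP, with no marker at 0 in every library of a group. Their part in the Ifi30, DM and protease results was not tested. Dendritic cell markers were mixed, with 3, 1 and 2 of 10 higher and 2, 2 and 1 lower. Clec10a was higher in all 3 hematoma groups, and Cd209a was lower in all 3.

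Ciita, the coactivator that switches on class II genes, was at 7.07, 6.06 and 13.2 CPM in normal, 20.1, 6.29 and 11.2 CPM in delayed, 7.91, 18.8 and 6.08 CPM in nonunion and 19.4, 16.6 and 15.2 CPM in preOP. It was not called in any comparison (normal against preOP: log2 fold change -0.96, SE 0.52, adjusted p = 0.15). Of 19 other regulators tested, none was called among hematomas, and 2 rose and 5 fell in normal against preOP, 2 and 5 in delayed, and 0 and 4 in nonunion. Of all features, 42.6%, 28.2% and 28.4% were called in normal, delayed and nonunion against preOP. Rfx5, the subunit of the complex that binds the X box, was at 60.8 ± 1.92 CPM in preOP, 19.7 ± 4.56 CPM in normal and 31.6 ± 3.05 CPM in nonunion (log2 fold change -1.62 and -0.95, adjusted p = 0.00046 and 0.011). Nfyb, of the complex that binds the Y box, was at 52.0 ± 2.58 CPM in preOP and 26.0 ± 3.10 CPM in delayed (adjusted p = 0.0039). Ifngr2, a chain of the interferon gamma receptor, rose in normal and delayed by 1.28 in each (adjusted p = 0.0097 and 0.015).

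An interferon response list was also followed, and its part in the class I result was not tested. Its 20 genes summed to 289 to 524 CPM in the normal libraries, below the delayed ones (577 to 1308 CPM) and the preOP ones (1359 to 1637 CPM). The nonunion libraries, at 352 to 965 CPM, overlapped the normal ones. Of 19 tested, 1 was called among hematomas, the T cell attractant Cxcl9, at 42.5 ± 29.0 CPM in nonunion and 2.32 ± 0.789 CPM in normal (log2 fold change 4.10, adjusted p = 0.033). Against preOP, Rsad2, an antiviral enzyme, fell in all 3 groups, with log2 fold changes of -5.77 in normal, -3.97 in delayed and -6.66 in nonunion. In these groups 0, 3 and 1 genes of the list rose while 4, 2 and 2 fell, beside 42.6%, 28.2% and 28.4% of all features called.

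Cd80 and Cd86, the ligands of CD28 on antigen presenting cells, were low in all groups. Cd80 spanned 0.735 to 1.45 CPM for normal, 1.86 to 3.57 CPM for delayed, 0 to 2.97 CPM for nonunion and 0.493 to 1.37 CPM for preOP, and Cd86 was at 1.54 to 8.82 CPM over all libraries. Neither was called in any comparison. Of 11 other costimulatory and checkpoint genes tested, 3, 4 and 3 rose in normal, delayed and nonunion against preOP and none fell, which is not far from the 42.6%, 28.2% and 28.4% of all features called. Cd276 was at 130 ± 7.11 CPM in normal, 62.7 ± 17.7 CPM in delayed, 88.0 ± 13.2 CPM in nonunion and 17.5 ± 3.71 CPM in preOP, and rose in all 3. Tnfsf9, the ligand of 4-1BB, also rose in all 3, by 2.47, 3.05 and 2.81. None of the 10 tested among hematomas was called.

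The remaining members either did not pass the filter on low counts or were not called. RT1-Ha, M1-2, M1-4, M1-5, M4, M5, N2 and T18 did not pass the filter in either fit and had at most 36 estimated reads in a library, or 1.62 CPM. RT1-Db2 and RT1-M6-1 passed only in the fit of all 12 libraries and were not called. RT1-N2, the member with those 36 reads, was at 0.752, 0.245 and 1.62 CPM in the normal libraries and at 0 to 0.0472 CPM in the other 9, with no test. RT1-M6-2, O1 and S2 stayed at or below 2.33 CPM and RT1-N3 at 16.4 to 42.6 CPM, and none of these 4 was called in any comparison.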

How the data were processed

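RNA-seq libraries from 12 rat samples in 4 groups of 3 were used. Per the labels, Trizol was used for extraction and 1 ug of total RNA entered the Illumina TruSeq RNA kit. Per the submitters' processing notes, bcl2fastq 1.8.4, FastQC, Trimmomatic and Salmon were used with build rn6, with other versions not given in the sources used here. The files deposited by the authors give estimated counts of reads per RefSeq transcript (not scaled), TPM and effective lengths, per the file headers. The deposited TPM were not tested. Whether counting used strand is not stated.

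Estimated counts were summed by gene symbol and rounded; 17367 of 18321 transcripts matched 16425 symbols in RefSeq, and 954 were kept as single features. edgeR 4.0.16 in R 4.3.3 (TMM, filterByExpr by group, quasi-likelihood F-test, Benjamini-Hochberg over all features, called below 0.05) compared hematomas in 1 fit of 9 libraries (12474 features) and preOP in 1 fit of 12 (12846 features). Tests were two-sided. The SE is the absolute log2 fold change over the square root of F. Fitting was tested on simulated data. CPM are TMM-scaled; levels per length divide reads by effective length. Ratios, shares and the group of 7 class I genes were chosen after seeing values. The members and lists were chosen with earlier results of these data known. All members are named; genes outside them come from fixed lists, up to 4 called per list and comparison by smallest p, or 2 by level. Alternatives were DESeq2 1.42.0, its size factors, no filter, a replicate block, fewer groups or libraries, ribosomal RNA left out and effective lengths as offsets. Promoters are from GRCr8, whose coordinates were not mixed with rn6, and 52 of 58 members had one.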

Additional observations from a re-analysis of the deposited data

How the results depend on the processing

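In delayed against normal, 8 members and 889 features were called; DESeq2 called 2033 features, and without delayed 2 and nonunion 2 these were 14 members and 2056 features. In nonunion against normal, 6 members and 296 features became 11 and 1310 with DESeq2. In nonunion against delayed, 0 features became 184 with DESeq2 and 60 without delayed 2 and nonunion 2. Without these 2 libraries, members called against preOP went from 7 to 12 in delayed and from 6 to 14 in nonunion, and RT1-CE1 reversed in nonunion against preOP, from 0.14 to -1.15 (log2). The cause was not tested.

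The deviations of same-numbered libraries had correlations of -0.18 to 0.19 over 18 pairs, 4 above 0.1. With 3 libraries per group such values cannot show whether the numbers pair samples, which the labels do not say. With the replicate number as a block, 3 members and 433 features were called in delayed against normal and 2 members and 148 features in nonunion against normal.

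With each library left out in turn, members called ran from 2 to 9 in delayed and 0 to 9 in nonunion against normal, 0 in nonunion against delayed, and 16 to 27, 3 to 10 and 2 to 9 in normal, delayed and nonunion against preOP. Features called ran from 175 to 1432, 23 to 446, 0 to 1, 3952 to 6381, 2292 to 4564 and 2334 to 4407 in the same order. Fewer samples were fitted in each. The log2 ratio of summed class I levels ran from -1.69 to -1.14 in delayed and -1.62 to -1.04 in nonunion against normal, and that of class II from -0.95 to -0.16 and -1.09 to -0.72.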

Other observations

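Class I-like genes outside RT1 gave few differences. Of 6 tested, none was called among hematomas, and 2 rose in normal against preOP, beside 42.6% of all features called: Hfe, the iron regulator of the class I fold, from 5.47 ± 0.767 to 11 ± 2.12 CPM (log2 fold change 1.00, SE 0.33, adjusted p = 0.029 by edgeR), and Raet1l, from 0.158 ± 0.023 to 1.17 ± 0.651 CPM (2.83, SE 0.75, adjusted p = 0.011) (SD, n = 3). Fcgrt, the neonatal Fc receptor, was at 488 CPM in nonunion 2 and at 56.9 to 161 CPM in the other 11 libraries.

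The estimated reads of Ciita moved among its 3 RefSeq transcripts from library to library. NM_001270803 had fewer than 1 read in 5 of the hematoma libraries and 348 in delayed 1, and NM_053529 ranged from 0 in normal 2 to 176 in delayed 1. The sum over the transcripts, from 99 to 524 reads, was the value used for the gene.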
